A study of Caenorhabditis elegans with 2 samples.

Results

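The genes described here are xol-1, sex-1, fox-1, ceh-39 and sea-1 of Caenorhabditis elegans, which act where the early embryo counts X chromosomes against sets of autosomes. They were chosen by name and not by a rule on measured values, though with earlier results of these data known. They are 5 of the 19973 protein-coding genes on the 6 nuclear chromosomes. Chromatin immunoprecipitation followed by sequencing (ChIP-seq) of SEA-2 was carried out on whole young adult worms collected at 64 hours. The 2 biological replicates form 1 group, and no other precipitation and no input was analysed here. The strain, OP586, carries the inserted transgene wgIs586, which encodes SEA-2 tagged with TY1, EGFP and 3xFLAG together with unc-119(+), in an unc-119(tm4063) background. All animals in the data therefore carry the transgene's copies of sea-2 and unc-119 beside the genome's own. The cultures were synchronised as starved L1 larvae after bleaching, their sex was not collected, and the precipitation used an antibody to GFP, per the description, although the antibody label names sea-2. Since whole animals were used, fewer nuclei in which SEA-2 sits on a site and less SEA-2 per nucleus cannot be told apart.

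In C. elegans, XX embryos become hermaphrodites and XO embryos become males, and the choice is made by counting X chromosomes against sets of autosomes. The switch is xol-1, whose product directs male development and whose activity must stay low in XX embryos. X signal elements, which are genes on the X chromosome, lower xol-1 activity, and autosomal signal elements raise it. SEX-1 is a nuclear hormone receptor and CEH-39 a cut-family homeodomain protein, and both act as X signal elements on xol-1 transcription. FOX-1 is an RNA-binding protein that acts as an X signal element on xol-1 splicing. SEA-1, a T-box protein, and SEA-2, the zinc finger protein precipitated here, are autosomal signal elements. The counting takes place in embryos, whereas the animals sampled here were young adults.

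Every candidate peak was taken whose summit lay in the gene body or up to 5000 bp upstream of the gene's start, in Ensembl's annotation of WBcel235, the sequence of the ce11 assembly. The main list is the ranked list of 82563 candidates from both replicates pooled, scored for how well each repeated between replicate 1 and replicate 2. Ranked lists of 51269 candidates for replicate 1 and 50405 for replicate 2 stand beside it. An optimal list of 453 peaks and a conservative list of 431 peaks hold peaks of the pooled replicates that met an IDR of 0.01, though not every candidate that met it. Signal is the authors' own value for each candidate, and its scale was not stated, so signals were compared only within a list and between lists only ranks were used. The irreproducible discovery rate (IDR) measures how poorly a candidate's rank repeats between the lists it was scored on, and smaller values mean better repetition. The pooled signal had a median of 24.9 over all candidates and 94.5 over the conservative list. No test between conditions was possible with 1 group. The strongest candidate of each member is given with both replicates beside it as its spread. Values of other genes are those of the pooled list unless a replicate is named.

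In outline, xol-1 was the member with a peak past a threshold, and that peak lay 4816 bp upstream of its start, beside a tRNA gene. Within the optimal list 0 of the 5 members had a peak, against 3.42% of protein-coding genes. Within the conservative list xol-1 alone had one, against 3.25% of protein-coding genes. In the replicates' own thresholded lists, 0 of the 5 members had a peak, against 1.48% of protein-coding genes in replicate 1 and 0.966% in replicate 2. On the X chromosome, where 4 of the members lie, 88 of 2731 genes (3.22%) had an optimal peak, and the same number had a conservative one. With 5 members, counts of 0 and 1 are too small to set the group apart from shares of this size in either direction.

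The pooled windows of the 5 members held 57 candidates in all, and the sequences under the candidates on which the description turns are given first. Each is 201 bases of the RefSeq WBcel235 genome centred on a summit, read 5′ to 3′ on the + strand.
The conservative peak upstream of xol-1, chrX:8036397-8036597, is shown because it was past a threshold, and capitals mark matches to ATCGAT and to CGCGCA or its reverse complement.
xol-1 upstream 1: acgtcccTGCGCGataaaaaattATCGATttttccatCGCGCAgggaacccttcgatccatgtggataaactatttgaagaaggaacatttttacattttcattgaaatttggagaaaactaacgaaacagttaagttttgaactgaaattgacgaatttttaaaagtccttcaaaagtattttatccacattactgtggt
Next to it, chrX:8036638-8036838 is centred on the gene C18A11.t2 for arginine tRNA, which is transcribed from the other strand and is shown in capitals.
xol-1 upstream 2: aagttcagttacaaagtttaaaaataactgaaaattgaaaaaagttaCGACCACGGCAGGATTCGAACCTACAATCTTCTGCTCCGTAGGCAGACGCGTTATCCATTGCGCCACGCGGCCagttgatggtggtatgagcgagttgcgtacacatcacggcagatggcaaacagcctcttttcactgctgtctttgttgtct
Nearer to xol-1, chrX:8037424-8037624 holds the gene C18A11.t1 for proline tRNA, in capitals.
xol-1 upstream 5: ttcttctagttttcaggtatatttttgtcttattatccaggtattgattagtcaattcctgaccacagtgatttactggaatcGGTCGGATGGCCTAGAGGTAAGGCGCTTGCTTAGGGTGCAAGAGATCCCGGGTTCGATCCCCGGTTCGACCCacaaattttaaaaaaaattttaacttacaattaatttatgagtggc
The strongest candidate of ceh-39, chrX:1858799-1858999, holds the gene T26C11.t1 for glutamate tRNA, in capitals.
ceh-39 upstream 1: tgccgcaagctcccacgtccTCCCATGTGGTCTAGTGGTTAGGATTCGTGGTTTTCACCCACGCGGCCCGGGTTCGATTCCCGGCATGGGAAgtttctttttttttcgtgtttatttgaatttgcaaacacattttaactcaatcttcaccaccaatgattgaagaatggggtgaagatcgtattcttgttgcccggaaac
The strongest candidate of fox-1, chrX:2456323-2456523, lies over the non-coding RNA gene R04B3.7, whose part of the window is in capitals.
fox-1 intron 1: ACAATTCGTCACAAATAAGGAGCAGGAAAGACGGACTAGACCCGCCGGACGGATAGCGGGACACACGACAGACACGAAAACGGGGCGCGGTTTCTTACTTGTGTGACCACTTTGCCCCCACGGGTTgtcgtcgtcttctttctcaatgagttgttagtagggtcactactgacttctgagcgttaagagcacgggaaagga

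The switch gene xol-1 (WBGene00006962, X, 8041313 to 8044409, + strand) held 9 pooled candidates in a window of 8097 bp. Its strongest, chrX:8036345-8036648, had a signal of 70.4 and ranked 867 of 82563 candidates, which places it among the strongest 1.05%. Replicate 1 had a candidate there with a signal of 53.1, rank 314 (0.612% of its list), and replicate 2 one with a signal of 33.5, rank 1472 (2.92%). Both replicates thus placed the site among their stronger candidates, and in each replicate it was the strongest candidate of the xol-1 window. The replicates' summits lay 4760 and 4930 bp upstream of the start, on either side of the pooled one. Among all protein-coding genes, 6.42% had a strongest pooled candidate at least as high as this one, and on the X chromosome 6.74% had. In the replicates' ranked lists the share of all protein-coding genes was 2.41% in replicate 1 and 10.6% in replicate 2.

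The conservative peak of xol-1 had an IDR of 0.00580 in the pooled list, where the threshold was 0.01, and ranked 398 of the 431 peaks of the conservative list by signal. Its q value was 0.121, so the peak did not reach a q of 0.05, which 323 of the 82563 candidates (0.391%) did. It was absent from the optimal list. The second pooled ranked list, of 81415 candidates, gave the same interval and signal an IDR of 0.0356, above the threshold of 0.01. Every optimal peak met that threshold in the second list, and every conservative peak met it in the list that compared the replicates. Within the replicates' own lists the IDR at the site was 0.0281 in replicate 1 and 0.516 in replicate 2, and the site was in the thresholded list of neither. The call at xol-1 thus rested on the comparison between replicates.

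The nearest protein-coding start to the peak was that of xol-1 itself. The nearest tRNA gene was C18A11.t2 (X, 8036685 to 8036757, - strand), 188 bp from the summit, whose arginine tRNA is a product of RNA polymerase III. A non-coding RNA gene, C18A11.13 (X, 8036674 to 8036762, + strand), is annotated over the same stretch on the other strand and reaches slightly nearer to the summit. The second candidate of xol-1 lay inside the tRNA gene, 4575 bp upstream of the xol-1 start, with a signal of 50.7 and rank 4751. Its IDR was 0.346 in the pooled list and 0.0124 in the second pooled list, just above the threshold there. In replicate 1 it overlapped the same candidate of 53.1 as the conservative peak, and in replicate 2 a separate candidate of 24.2 at rank 7581. Replicate 1 also had a separate candidate of 19.8 at 4558 bp upstream. Each replicate thus had a summit inside the tRNA gene and another beside it, farther from xol-1.

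Closer to xol-1 the candidates were weaker. Within 2000 bp upstream, the strongest lay 1470 bp from the start, with a signal of 45.7 and rank 7719, 30.5 in replicate 1 and 20.6 in replicate 2. The 3 candidates in the body lay 971, 1350 and 2144 bp from the start, all in exons, and the strongest of them had a signal of 34.6 and rank 20909. That exon candidate had a signal of 20.7 in replicate 1, at 41.3% of its list, and 13.7 in replicate 2, at 65.9%. The candidate over the proline tRNA gene, 3789 bp upstream, had a signal of 27.2, near the median of all candidates, with 24.7 in replicate 1 and none overlapping it in replicate 2. Of the 3 xol-1 candidates within 500 bp of a tRNA gene, 2 were the strongest of the window and this one was the fifth. With only the body and 1000 bp upstream, the strongest candidate of xol-1 would stand at 25.3% of the list, in place of 1.05%.

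**Figure D1:**
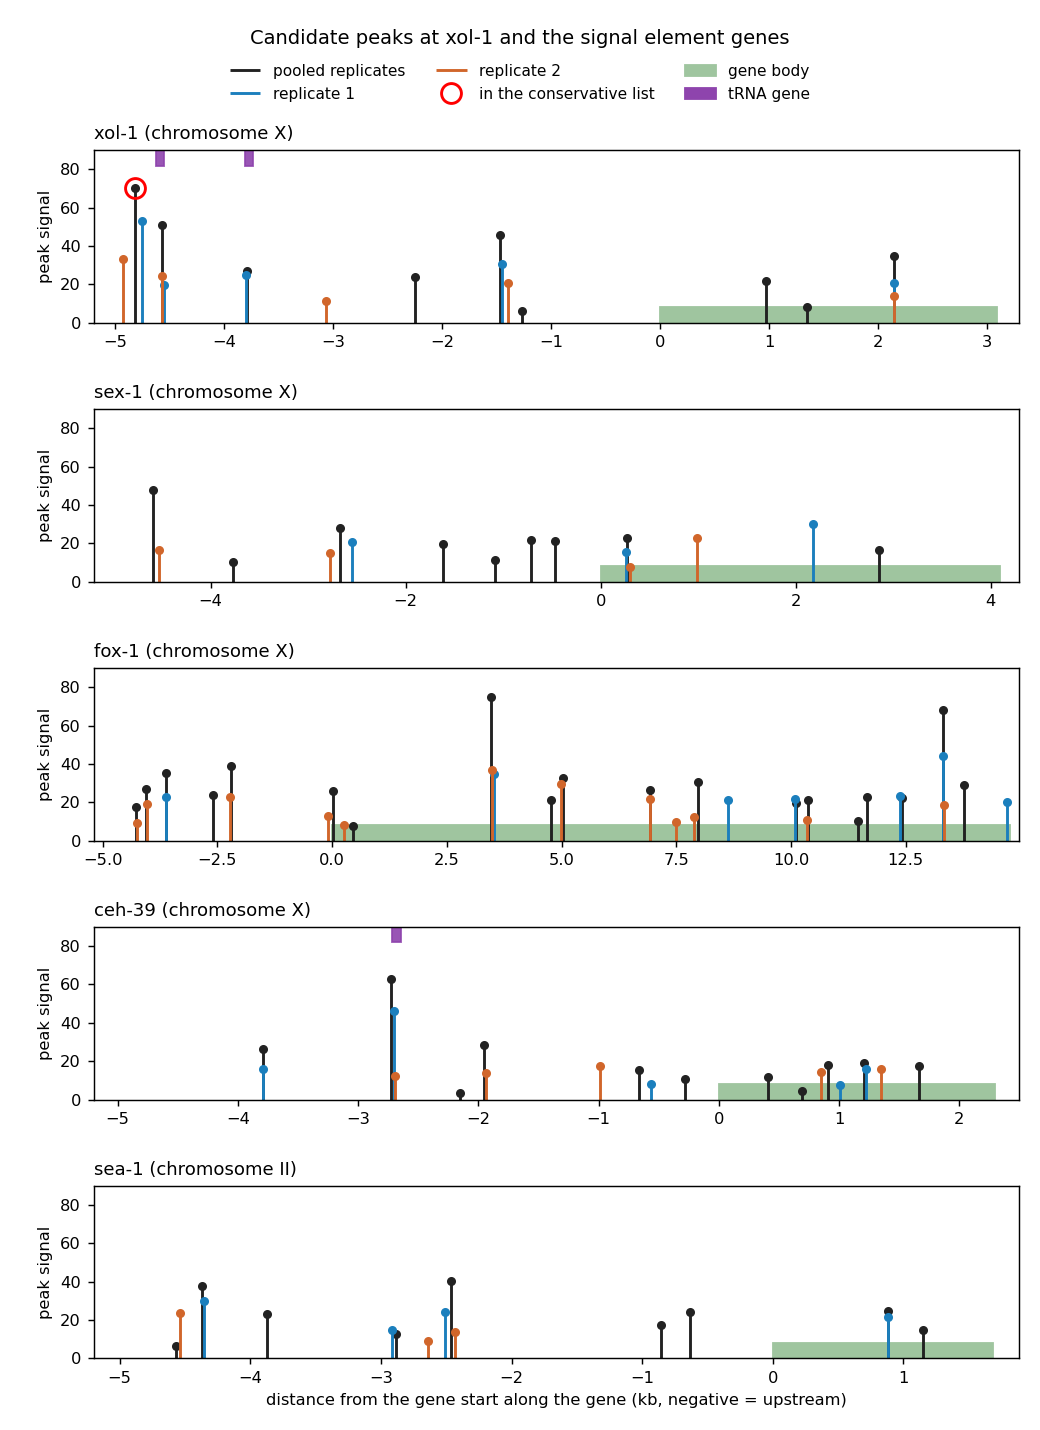
Signal of each candidate peak against its distance from the gene start along the gene, in kb with upstream negative, for the pooled list and each replicate's list at the 5 genes, where heights compare only within a list. At xol-1 the tallest pooled candidate, 70.4, stands 4816 bp upstream beside the arginine tRNA gene, and the body candidates reach 34.6.

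The map of candidates by distance from the gene start puts the strongest candidate of xol-1, sex-1, ceh-39 and sea-1 upstream, and that of fox-1 within the gene. Of the 57 candidates, 31 lay upstream, 14 in exons, 11 in introns and 1 in a five-prime UTR. Most of the intron candidates were those of fox-1, with 10.

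Among the X signal elements, fox-1 (WBGene00001484, X, 2445117 to 2459893, - strand) had the strongest candidate of all 5 members. It also has the longest window, 19777 bp, against a median of 7027 bp over all protein-coding genes, and the most pooled candidates, 19. Its density of 0.961 candidates per kb was nearer to the median of 0.869 for all genes than that of the other members. The strongest, chrX:2456271-2456574, lay in an intron 3470 bp from the start, with a signal of 75.0, rank 646 (0.782%), q of 0.0883 and IDR of 0.0201. Replicate 1 had a signal of 34.9 there at rank 2870 (5.60%), and replicate 2 a signal of 36.9 at rank 833 (1.65%). It missed the threshold of 0.01 in the pooled list, and in the second pooled list its IDR was 0.0629. The summit fell in the non-coding RNA gene R04B3.7 (X, 2456308 to 2456448, - strand), which lies inside the fox-1 intron on the same strand.

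A second strong candidate of fox-1 lay in an exon 13325 bp from the start, with a signal of 68.0 and rank 1049. There replicate 1 had its strongest fox-1 candidate, with a signal of 44.3 at rank 774 (1.51%), whereas replicate 2 had 18.7 at rank 18137 (36.0%). The replicates therefore put their strongest fox-1 candidate at different places, in the exon for replicate 1 and in the intron for replicate 2. The IDR of the exon candidate was 0.199 in the pooled list and 0.0225 in the second. Upstream of fox-1 the highest signal was 38.7, at rank 14708, so the promoter side held no candidate near the strength of those in the gene. Of protein-coding genes, 4.83% had a strongest pooled candidate at least as high as that of fox-1. By each replicate's own strongest candidate the share was 5.65% in replicate 1 and 6.09% in replicate 2.

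The gene for the homeodomain protein, ceh-39 (WBGene00000460, X, 1853874 to 1856172, - strand), had its strongest candidate, chrX:1858747-1859050, 2727 bp upstream. The pooled signal was 63.0 at rank 1580 (1.91%), with a q of 0.229 and an IDR of 0.639. Replicate 1 had a signal of 46.0 there at rank 621 (1.21%), with its summit inside the gene T26C11.t1, and replicate 2 a signal of 12.03 at rank 38536 (76.5%). The replicates disagreed at this site more than at the strongest site of xol-1 or fox-1, and replicate 1 carried the pooled rank. The strongest ceh-39 candidate in replicate 2 lay elsewhere, 988 bp upstream, with a signal of 17.4 at rank 21752 (43.2%). The pooled summit lay 9 bp from T26C11.t1 (X, 1858819 to 1858890, + strand), and the start of the coding gene T26C11.8 was nearer to it than that of ceh-39, at 1823 bp. The second pooled candidate of ceh-39 had a signal of 28.7 and rank 32477, close to the median of all candidates. Of protein-coding genes, 11.2% had a strongest pooled candidate at least as high as that of ceh-39. By each replicate's own strongest candidate the share was 4.60% in replicate 1 and 77.1% in replicate 2, so the pooled share did not hold in replicate 2.

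The nuclear receptor gene, sex-1 (WBGene00004786, X, 10201329 to 10205421, - strand), held 9 pooled candidates, and the strongest lay 4595 bp upstream with a signal of 47.7 at rank 6399 (7.75%). Its q was 0.533 and its IDR 0.383. Replicate 1 had no candidate there, and replicate 2 had one with a signal of 16.4 at rank 24691 (49.0%). The start of F44A6.3, at 2753 bp, was nearer to that summit than the start of sex-1. In replicate 1 the strongest sex-1 candidate lay in an exon 2183 bp from the start, with a signal of 30.1 at rank 5916 (11.5%). In replicate 2 it lay in an intron 992 bp from the start, with a signal of 22.9 at rank 9447 (18.7%). The pooled list and the replicates thus had their strongest sex-1 candidates at 3 different places, and none of the 3 overlapped a candidate of both replicates. The exon site of replicate 1 was a candidate of the second pooled list, with a signal of 30.4, and the pooled list held no candidate there. Of protein-coding genes, 36.1% had a strongest pooled candidate at least as high as that of sex-1. By each replicate's own strongest candidate the share was 34.9% in replicate 1 and 49.2% in replicate 2.

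The autosomal signal element sea-1 (WBGene00004750, II, 3671908 to 3673593, - strand) had the weakest strongest candidate of the members. It lay 2467 bp upstream, inside the neighbouring coding gene F19B10.2, with a signal of 40.2 at rank 12827 (15.5%), a q of 0.672 and an IDR of 0.499. Replicate 1 had a signal of 24.1 there, at 27.6% of its list, and replicate 2 a signal of 14.0, at 64.1%. The second candidate, 4367 bp upstream inside F19B10.10, had a pooled signal of 38.0 at rank 15633 and a lower IDR of 0.145. Both replicates had their strongest sea-1 candidate at that second site, with 29.9 at rank 6063 (11.8%) in replicate 1 and 23.6 at rank 8359 (16.6%) in replicate 2. In the pooled list, 57.6% of protein-coding genes had a strongest candidate at least as high as that of sea-1. The share was 35.6% in replicate 1 and 45.0% in replicate 2. By signal alone, sea-1 thus stood below the median gene in the pooled list and above it in each replicate. Among the 18270 genes with a pooled candidate in the window, the strongest had a median signal of 44.1. The nearest optimal peak was 279456 bp from the window of sea-1 and lay in sea-2.

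**Figure D2:**
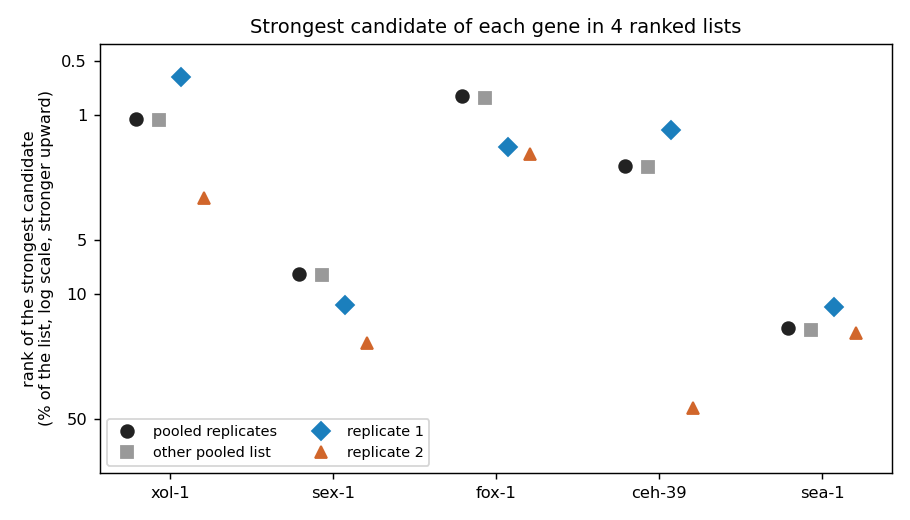
Rank of the strongest candidate of each gene as a percent of its list, on a log axis with stronger candidates higher, for the pooled, second pooled, replicate 1 and replicate 2 lists. Replicate 1 stands at 1.51% and replicate 2 at 1.65% for fox-1, and at 1.21% and 43.2% for ceh-39, in both genes at different sites.

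In the pooled list the members ran in the order fox-1, xol-1, ceh-39, sex-1 and sea-1. The plot of ranks in each list shows which neighbours in that order the replicates keep apart. The 2 replicates placed the strongest candidate of fox-1 at 1.51% and 1.65%, inside the range of 0.612% to 2.92% for xol-1, so fox-1 and xol-1 did not differ beyond the spread. The closeness of the fox-1 values is not repetition of 1 site, since the intron site stood at 5.60% in replicate 1 and 1.65% in replicate 2, and the exon site at 1.51% and 36.0%. The range of ceh-39, 1.21% to 43.2%, overlapped that of every other member. Those of sex-1, 11.5% to 18.7%, and sea-1, 11.8% to 16.6%, overlapped each other and lay apart from those of fox-1 and xol-1. The ranges of ceh-39 and sex-1 also join different sites in the replicates. Each replicate ranked xol-1 and fox-1 above sex-1 and sea-1. By the lowest IDR in each window instead of the highest signal, the order in the pooled list was xol-1, fox-1, sea-1, sex-1 and ceh-39, at 0.454%, 0.905%, 3.99%, 14.2% and 29.9%.

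**Figure D3:**
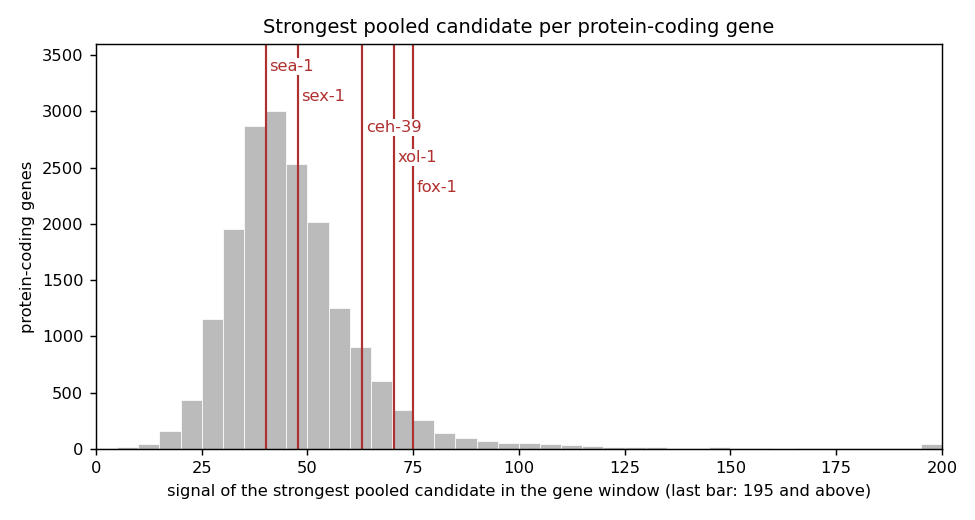
Number of protein-coding genes by the signal of the strongest pooled candidate in the gene window, in bins of 5, with the 5 genes marked. The genes sex-1, at 47.7, and sea-1, at 40.2, fall near 44.1, the median of genes with a candidate, and ceh-39, xol-1 and fox-1 lie to the right of it.

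The histogram of all genes places 3 of the 5 members among the genes whose strongest candidate was within the strongest 5% of the pooled list, and 25.7% of protein-coding genes were there. A long window offers more candidates, and the windows of the 5 members ran from 6686 bp for sea-1 to 19777 bp for fox-1. Candidate density was 1.51 per kb for ceh-39, 1.35 for sea-1, 1.11 for xol-1 and 0.990 for sex-1, all above the median of 0.869. By the likeness of their ranks over the pooled list and both replicates' lists, the 3 genes nearest to xol-1 were rhgf-2 on II, fbxb-58 on X and vamp-7 on IV. Their strongest pooled candidates had signals of 71.8, 73.0 and 72.8, against 70.4 for xol-1, and of the 3 only vamp-7 had an optimal peak and none had a conservative one.

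The 57 candidates of the 5 members were next set beside all candidates of the pooled list. Of the 57, 18 (31.6%) overlapped a candidate of both replicates, against 34.0% of all pooled candidates. Some of the 18 were neighbours that overlapped the same replicate candidates, as at 1470 and 1270 bp upstream of xol-1. The 18 are therefore not all separate sites, and all pooled candidates were counted in the same way. A further 8 (14.0%) overlapped a candidate of replicate 1 alone and 13 (22.8%) of replicate 2 alone, against 21.9% and 22.1% of all candidates. Of the members' candidates, 18 (31.6%) overlapped neither, against 22.0% of all. Their median signal was 22.6, with a range of 3.60 to 75.0, and 22 of the 57 (38.6%) were at or above the median of all candidates. None of the 57 had a q of 0.05 or less, against 0.391% of all pooled candidates. With a share that small, having none does not set the 57 apart. The strongest 5% of the list held 4 of them (7.02%): the strongest candidates of xol-1 and ceh-39 and a pair at fox-1.

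Candidates close to tRNA genes were more frequent at the members than in the list as a whole, as 5 of 57 (8.77%) had a tRNA gene within 500 bp, against 700 of 82563 (0.848%). All 5 lay upstream of xol-1 or ceh-39, so they share 3 tRNA genes and are not independent. This measure was chosen after the values were seen. Of all protein-coding genes, 619 (3.10%) had a tRNA gene in the window, among them xol-1 and ceh-39. Of those 619 genes, 13.6% had an optimal peak and 13.1% a conservative one, against 3.09% and 2.93% of the other 19354 genes. Their median strongest signal was 55.0, against 43.8 for the other genes. The values of xol-1 and ceh-39 thus sat beside a feature that went with higher signal genome-wide. Without candidates within 500 bp of a tRNA gene, the strongest candidate of xol-1 stood at 9.13% of the list and that of ceh-39 at 39.1%. The part of the tRNA genes in the xol-1 peak was not tested.

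The sequences differed in how far they recur in the genome. In the window of the conservative xol-1 peak 0% of the 31-base stretches occurred elsewhere in the genome, against 30.4% in the arginine tRNA window beside it, 17.5% in the proline tRNA window and 35.1% in the ceh-39 window. Of the 57 windows, 49 had no recurring stretch, and 2 had more than 50%, both upstream of fox-1. The summit of one of them lay in the tRNA pseudogene R04B3.t2, and the other lay near R04B3.t1 with its summit outside that pseudogene. GC content in the windows averaged 42.2% ± 6.67 (SD, n = 57 windows), against 40.1% ± 7.11 (SD, n = 82563) for all candidates. The xol-1 peak window was lower, at 33.8%, and the window of the fox-1 intron candidate higher, at 52.2%.

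Short motifs were searched on both strands of each 201-base window. The letters were taken from the families of the proteins that these genes encode, not from SEA-2, whose own sequence preference was not used. The nuclear receptor half-site AGGTCA was in 7 of the 57 windows (12.3%), 5 of them at fox-1 and 2 at xol-1, against 5.53% of all candidate windows. The cut homeodomain motifs ATCGAT and ATTGAT were in 6 (10.5%) and 9 (15.8%), against 6.71% and 17.2%. The T-box half-site TCACAC was in 7 (12.3%), against 8.22%, and TGCATG, the DNA form of the FOX-1 family's RNA motif, was in 7 (12.3%), against 6.33%. Of these, the strongest windows held ATCGAT at xol-1 and TCACAC at fox-1. A match is a run of letters and not a site.

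A further pair, GAGAGA and CGCGCA, was taken from 6-mers that were frequent in peaks in earlier results of these data. GAGAGA was in 6 windows (10.5%), against 11.7% of all, and CGCGCA in 4 (7.02%), against 3.996%. CGCGCA stood in the strongest windows of xol-1 and sea-1, and in the xol-1 window printed above it occurred at 2 places, 8036404 to 8036409 and 8036434 to 8036439, on either side of the ATCGAT at 8036420 to 8036425. GTTCGA, the core of the B box inside tRNA genes, was added after the values were seen, and it was in 11 windows (19.3%), against 8.24%. It appears within the capitals of both the proline and glutamate tRNA sequences, and in the arginine tRNA sequence as its reverse complement. The strongest sex-1 window also held it, 61295 bp from the nearest tRNA gene.

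The members were set beside 23 annotated genes of sex determination and dosage compensation. Their strongest pooled signals had a median of 49.6, and 3 had an optimal peak, against 3.42% of all protein-coding genes, and the same 3 had a conservative one. The first of them, dpy-28, encodes a condensin subunit of the dosage compensation complex that lowers X expression in hermaphrodites. Its window held the strongest optimal peak, with a signal of 394.9, but the summit was 3870 bp upstream of dpy-28 and 46 bp from the start of tasp-1. The second, tra-2, encodes a membrane protein that promotes female fates, and its peak of signal 114 lay 2793 bp upstream and 818 bp from the start of eif-2Bgamma. The third, sea-2, had 7 optimal and 5 conservative peaks, the strongest with a signal of 95.2, and is present in added copies on the transgene. By pooled signal each of the 3 was higher than fox-1, the strongest member at 75.0. In the replicates' own thresholded lists, dpy-28 and sea-2 had peaks in both and tra-2 in neither. At her-1, the male-promoting gene downstream of xol-1, the pooled list held no candidate, and the strongest candidate in replicate 2 had a signal of 24.9. Of the 19973 protein-coding genes, 18270 had a pooled candidate in the window, so her-1 was not alone in having none.

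**Figure D4:**
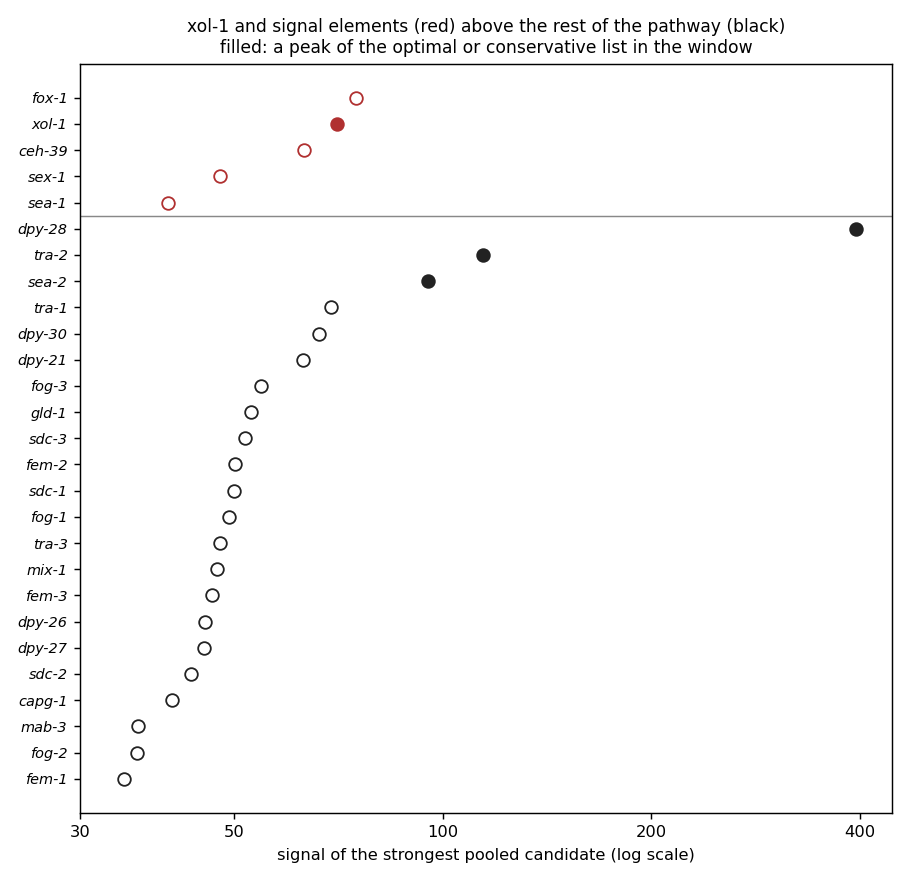
Signal of the strongest pooled candidate, on a log axis, for the 5 genes in red above the annotated pathway genes in black, with filled points for genes that have an optimal or conservative peak in the window. The filled points are xol-1 in red and dpy-28, tra-2 and sea-2 in black, and xol-1 at 70.4 is the lowest of the 4.

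In the plot of the pathway the 5 members ran from 40.2 to 75.0, inside the range of 34.7 to 394.9 for the other genes. Of the other genes, only dpy-28, tra-2 and sea-2 stood above fox-1 and xol-1. Below sea-2 came tra-1, which encodes the terminal zinc finger regulator of the pathway, at 69.1, dpy-30 at 66.3 and dpy-21 at 62.8, and none of these had a peak past a threshold. The genes sdc-1, sdc-2 and sdc-3, whose products bring the dosage compensation complex to the X, had strongest signals of 49.97, 43.3 and 51.8, close to sex-1 at 47.7. The nearest optimal peak to xol-1 was 8649 bp from its window, with a signal of 109. For sex-1, fox-1 and ceh-39 the nearest optimal peak was 56148, 84626 and 48407 bp away. The same distance was not measured for all genes, so these values do not set the members apart.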

How the data were processed

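SEA-2 ChIP-seq was analysed from the peak lists that the authors deposited for 2 replicates of young adult worms. The deposited signal of each peak and the deposited -log10 q and -log10 IDR values are the authors' own, and the latter were turned back into q and IDR. The assembly is ce11, per the labels. None of the aligner, the peak caller, their versions, the read depths and the scale of the signal is given in the sources used here, so depth is unknown and no interval was computed. Replicates differ as separate biological samples, per the labels. Of the 2 pooled ranked lists, the main one was recognised as that comparing the replicates because 56.9% and 57.6% of its compared intervals were candidates of replicate 1 and replicate 2, against 0 and 1 intervals in the other. All 431 conservative peaks met an IDR of 0.01 in the main list, and all 453 optimal peaks met it in the other, which held 70 more that met it, so some candidates past the threshold were not in the optimal list. Summits were assigned to genes of Ensembl release 115, and candidates were ranked by signal within each list. Overlap needed at least 1 bp. Windows of 201 bp were read from the RefSeq WBcel235 genome. The members, the pathway list, the motifs and the rule for named genes were chosen with earlier results of these data known. The rule named the members, genes at their strongest candidates, pathway genes with a peak or among the 3 strongest, and the 3 genes nearest to xol-1 in rank. Other pathway genes named were chosen after their values were seen. Alternatives were other windows, ranking by IDR, the other pooled list, the conservative list, each replicate alone, stricter overlaps and leaving out candidates near tRNA genes. The assignment of summits was tested on simulated data. Python 3.11.15, numpy 2.4.6, pandas 2.3.3 and matplotlib 3.10.9 were used.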

Additional observations from a re-analysis of the deposited data

How the results depend on the processing

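No paired analysis was possible because the 2 replicates form 1 group. Values are the rank percent of the strongest candidate. For xol-1, 1.05% became 25.3% with the body alone or with 1000 bp upstream, 9.35% with 2000 bp upstream and 9.13% without candidates within 500 bp of a tRNA gene, the last chosen after seeing the data. For ceh-39, 1.91% became 67.2% with the body alone or 1000 bp upstream, 39.3% with 2000 bp and 39.1% without candidates near tRNA genes. For sex-1, 7.75% became 56.4% and for sea-1 15.5% became 50.3% in all 3 narrower windows. Ranking by IDR gave 0.454% for xol-1, 0.905% for fox-1, 3.99% for sea-1, 14.2% for sex-1 and 29.9% for ceh-39, which puts xol-1 first and ceh-39 last. Each replicate alone gave 0.612% to 2.92% for xol-1, 11.5% to 18.7% for sex-1, 1.51% to 1.65% for fox-1, 1.21% to 43.2% for ceh-39 and 11.8% to 16.6% for sea-1. Members with a peak numbered 0 in the optimal list and 1 in the conservative list, and 0 in each replicate's own list. Protein-coding genes with an optimal peak numbered 683, against 374 with 1000 bp upstream, 170 with the body alone and 193 to 295 with each replicate alone. Member candidates found in both replicates numbered 18, against 11 with 50% overlap and 9 with summits within 100 bp. The narrower windows held fewer candidates by construction, and for the other changes the cause was not tested. Of the alternative values, 42 moved by less than the SD between replicates or by less than 1.5 times for a count, and 30 moved by more. That SD was 29.7 for ceh-39 and 0.101 for fox-1, from strongest candidates at different sites. Ranking by IDR thus counted as unmoved for ceh-39, at 29.9%, and as moved for fox-1, at 0.905%. The tally is therefore no measure of how robust the ranks are. The replicates are 2, the depth is unknown and no input was analysed here, so enrichment over input at any member could not be measured.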
